A study of Mus musculus with 6 samples.

Results

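The RGS genes (regulators of G-protein signalling) known from blood cells, Rgs18, Rgs1, Rgs2, Rgs10, Rgs14, Rgs16 and Rgs19, were followed in a mouse blood progenitor-like line after 2 h of transforming growth factor β1 (TGF-β1). They are 7 of the 29192 genes and transcripts tested, and 10 of the 41174 probes on the array carry their RefSeq accessions. The set was chosen by the log2 change of Rgs18, treated minus untreated, and the question asked of the other 6 genes was whether they follow it. Because that contrast selected the set, its changes are given as a description, and calls of the 7 genes in the fit across all genes are only counted beside the share of all genes called. The array series consists of 3 samples of Lhx2 cells exposed to 10 ng/ml TGF-β1 over 2 h and 3 samples of untreated Lhx2 cells. The line is named after Lhx2, a LIM-homeobox factor whose forced expression keeps such cells dividing. All 6 samples were grown in medium with 5% fetal calf serum, stem cell factor at 100 ng/ml and interleukin 6 at 10 ng/ml, and all were starved overnight in 0.5% albumin in place of serum before treatment. The RNA came from 3 independent harvests of a cultured line. P-values of the contrast fitted without harvest number set the change against the spread between these harvests. Where harvest number is in the fit, as in the test between harvests, the spread is what remains after harvest and treatment. Whether the line is a single clone is not given in the sources used here.

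Heterotrimeric G proteins carry signals from G-protein-coupled receptors, such as chemokine, thrombin and sphingosine-1-phosphate receptors, into the cell. An active Gα subunit holds GTP, and RGS proteins speed up the hydrolysis of that GTP and so shorten the signal. In blood cells RGS proteins tune migration towards chemokines and the activation of platelets and lymphocytes. Rgs18, Rgs1, Rgs2 and Rgs16 belong to the R4 subfamily of small RGS proteins, Rgs10 and Rgs14 to the R12 subfamily, and Rgs19 to the RZ subfamily.

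All values are log2 signal relative to the 75th percentile of the same array, which lay at an intensity of 882.7 to 1031 on treated arrays and 794.2 to 1002 on untreated arrays. All 10 probes of the 7 genes were well above background on all 6 arrays, and 0 spots were saturated. A treated and an untreated sample with the same replicate number are taken as 1 harvest and called a pair. Smad7, an inhibitory SMAD and early TGF-β target, was 11.8-fold higher in treated cells, which checks the treatment. Of the markers of the line, Cd34 had a mean of 6.07 in treated and 5.68 in untreated cells, Gata2 4.27 and 3.51, and Kit 2.35 and 2.82, while the Lhx2 probe read -4.24 and -4.29; whether that probe reads the introduced Lhx2 was not tested. In bulk RNA, fewer cells of a type and less RNA per cell cannot be told apart.

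Rgs18, a regulator of Gi and Gq signalling that is abundant in megakaryocytes and platelets, was about a factor of 3 lower after TGF-β1. The brighter of its probes read 0.99, 0.84 and 0.83 in treated harvests 1, 2 and 3, against 2.78, 2.35 and 2.37 in untreated harvests 1, 2 and 3. As background-corrected intensity before scaling, that is 1754, 1801 and 1834 in treated cells and 6172, 5117 and 4096 in untreated cells. The treated arrays lay close together and well below every untreated array. The means were 0.89 ± 0.09 in treated and 2.50 ± 0.24 in untreated cells (SD, n = 3 each), a log2 change of -1.61 (SE 0.16), or 3.05-fold lower. A second Rgs18 probe gave a change of -1.59, with 0.44, 0.16 and 0.23 in treated cells and 2.11, 1.72 and 1.79 in untreated cells. The change in single pairs was -1.79, -1.51 and -1.54 with the brighter probe and -1.66, -1.56 and -1.56 with the other. Among all genes tested, 0.0582% had a lower change than Rgs18.

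Rgs14 was the other gene of the 7 with lower values in treated cells, by a smaller amount. Rgs14 pairs its RGS domain with a further motif that holds Gαi subunits in the GDP state, and it also binds Ras-family GTPases. It read 1.19, 0.96 and 0.90 in treated cells, against 1.29, 1.21 and 1.77 in untreated cells. The groups did not overlap, but the highest treated and the lowest untreated array nearly met. The means were 1.02 ± 0.16 in treated and 1.42 ± 0.30 in untreated cells (SD, n = 3 each), a log2 change of -0.40 (SE 0.19). The pair changes of -0.09, -0.25 and -0.87 show that harvest 3 carried most of the difference. Without untreated replicate 3 the change was -0.23.

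The remaining R4 genes, Rgs2, Rgs1 and Rgs16, were higher in treated cells. Rgs2, which acts preferentially on Gαq, read 4.65, 4.61 and 5.54 in treated cells, against 3.32, 3.26 and 4.23 in untreated cells. Harvest 3 was the high one in both groups, and the gap within a pair was almost constant, at 1.33, 1.34 and 1.31. The mean log2 change was 1.33 (SE 0.36), or 2.51-fold, with means of 4.93 ± 0.53 in treated and 3.61 ± 0.54 in untreated cells (SD, n = 3 each). A dimmer Rgs2 probe gave 1.15, and its largest pair change was 1.20.

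Rgs1, known for dampening chemokine receptor signals in lymphocytes, read 2.11, 2.10 and 1.61 in treated cells, against 1.22, 1.32 and 0.24 in untreated cells. Here harvest 3 was the low one in both groups. The mean log2 change was 1.01 (SE 0.32), or 2.02-fold, and every treated array lay above every untreated array. Without untreated replicate 3 the change of Rgs1 was 0.67. Rgs16, an activation-induced RGS protein of lymphocytes and other cells, read -0.35, -0.71 and 0.29 in treated cells, against -1.38, -0.88 and -1.42 in untreated cells. Its mean log2 change was 0.97 (SE 0.29), and the pairs differed widely, at 1.04, 0.17 and 1.70, with harvest 2 nearly level.

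Rgs10 and Rgs19, of the R12 and RZ subfamilies, were also higher in treated cells and by similar amounts. Rgs10, a small RGS protein of platelets and myeloid cells, read 3.15, 3.31 and 3.85 in treated cells, against 2.51, 2.63 and 3.02 in untreated cells, a log2 change of 0.72 (SE 0.23), or 1.65-fold. Rgs19, also called GAIP, which acts on Gαi-class subunits, read 2.79, 2.80 and 2.85 in treated cells, against 1.87, 1.98 and 2.22 in untreated cells. The treated Rgs19 values spanned less than the untreated ones, with means of 2.81 ± 0.03 and 2.02 ± 0.18 (SD, n = 3 each) and a log2 change of 0.79 (SE 0.14). A second Rgs19 probe gave 0.74, with pair changes of 0.80, 0.83 and 0.58. Its treated values were not as tight, with an SD of 0.27 in treated and 0.37 in untreated cells.

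**Figure D1:**
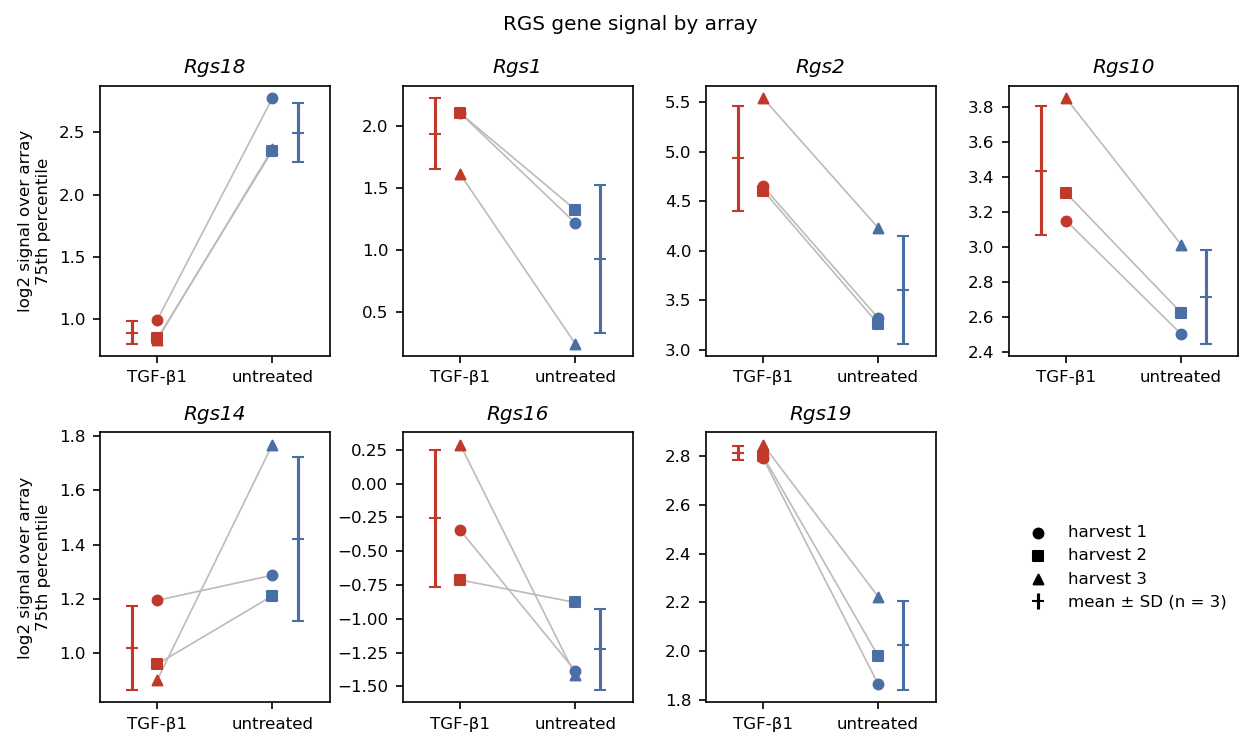
Log2 signal over the 75th percentile of the array (y axis, a different range in each panel) for the 7 RGS genes on 3 TGF-β1 arrays (red, left) and 3 untreated arrays (blue, right), with lines joining the samples of 1 harvest and bars for the mean ± SD. Rgs18 and Rgs14 are lower in treated cells and the other 5 genes higher, and in all 7 panels the groups do not overlap.

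Counted by direction, 2 of the 7 genes were lower and 5 higher in treated cells in all 3 pairs, where 20.0% and 14.1% of all genes tested were. The groups did not overlap for the same 2 and 5 genes; over all genes tested this held for 5.05% downwards and 5.36% upwards. In the limma fit across all genes, with Benjamini-Hochberg adjustment and a threshold of 0.05, 1 of the 7 was called, against 0.253% of all genes. It was Rgs18, called lower (0.0274% of all genes), and 0 were called higher (0.226% of all genes). With the harvest number as a block 2 of the 7 were called, against 0.665% of all genes. Rgs18 was again called lower (0.120% of all genes) and Rgs2 was called higher (0.545% of all genes). Because the contrast chose the genes, nothing is read from these shares. The median log2 change of the 7 was 0.79, against -0.01 over all genes tested.

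The arrays lay on 2 slides, with pairs 1 and 2 each on a single slide and pair 3 split between them. Rgs18 had -1.58 within slide 1, -1.52 within slide 2 and -1.55 in the fit blocked by slide. Rgs19 had 0.74 within slide 1, 0.84 within slide 2 and 0.79 in the blocked fit. The other 5 genes kept their direction within both slides, which groups without overlap fix in advance for all 7 genes. Each within-slide value sets 1 array against 2, with harvest 3 unbalanced. Within slides 1 and 2 Rgs1 had 1.38 and 0.53, Rgs2 0.87 and 1.81, Rgs10 0.39 and 0.95, Rgs14 -0.33 and -0.28, and Rgs16 1.05 and 0.67. With any 1 array left out, Rgs18 lay between -1.68 and -1.47, and 0 of the 7 genes were called, at 7 to 24 calls over all genes against 74 with all 6 arrays.

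**Figure D2:**
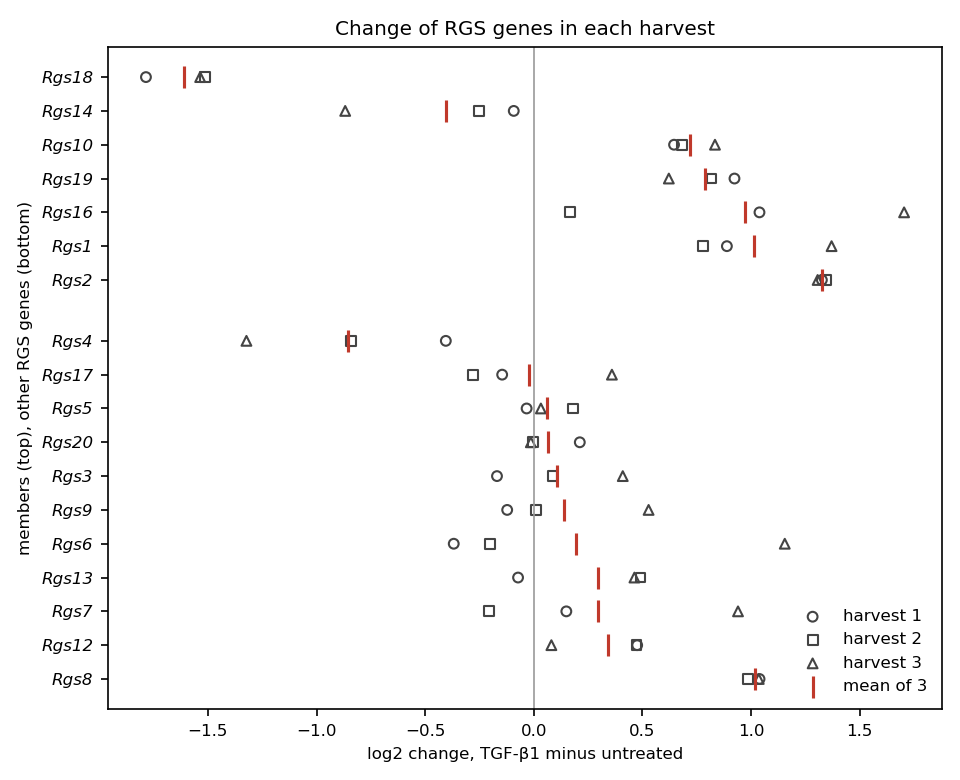
Log2 change, TGF-β1 minus untreated, in each harvest (open symbols) and their mean (red bar) for the 7 genes (top block) and for the 11 further RGS genes measured (bottom block). The 3 symbols of Rgs18 lie between -1.79 and -1.51, those of Rgs2 between 1.31 and 1.34, and those of Rgs8 between 0.99 and 1.04.

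Promoter sequence in the RefSeq-based table of build GRCm38.p6 was matched for 4 of the 7 genes, Rgs2, Rgs10, Rgs16 and Rgs19, which all had higher values in treated cells. The 250 bases before the annotated start are given for each of them so that these promoters can be set side by side, 5′ to 3′ on the strand of the gene, with the first listed of the 3 starts of Rgs19. A set of 3 motifs was searched on either strand, and capitals mark a match. The SMAD-type letters were CAGACA. For the motif of Gata1 and its zinc-finger relatives the letters were AGATAA. For the motif of Runx factors they were TGTGGT.
Rgs2, chr1:144004150-144004399, minus strand: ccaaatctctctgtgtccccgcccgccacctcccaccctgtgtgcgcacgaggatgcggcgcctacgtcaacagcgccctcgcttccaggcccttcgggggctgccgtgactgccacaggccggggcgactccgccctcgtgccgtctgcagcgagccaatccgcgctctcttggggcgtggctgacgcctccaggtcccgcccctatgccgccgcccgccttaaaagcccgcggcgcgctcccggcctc
Rgs16, chr1:153740103-153740352, plus strand: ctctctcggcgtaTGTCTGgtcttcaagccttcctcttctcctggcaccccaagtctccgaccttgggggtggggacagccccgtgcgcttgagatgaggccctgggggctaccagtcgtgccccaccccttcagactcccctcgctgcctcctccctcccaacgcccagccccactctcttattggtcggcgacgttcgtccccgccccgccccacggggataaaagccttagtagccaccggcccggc
Rgs10, chr7:128418173-128418422, minus strand: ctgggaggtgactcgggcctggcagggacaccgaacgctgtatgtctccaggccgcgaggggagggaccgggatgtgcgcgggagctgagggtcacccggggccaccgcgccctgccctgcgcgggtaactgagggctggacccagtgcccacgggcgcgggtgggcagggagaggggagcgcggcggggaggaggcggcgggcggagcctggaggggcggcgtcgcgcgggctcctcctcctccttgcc
Rgs19, chr2:181693978-181694227, minus strand: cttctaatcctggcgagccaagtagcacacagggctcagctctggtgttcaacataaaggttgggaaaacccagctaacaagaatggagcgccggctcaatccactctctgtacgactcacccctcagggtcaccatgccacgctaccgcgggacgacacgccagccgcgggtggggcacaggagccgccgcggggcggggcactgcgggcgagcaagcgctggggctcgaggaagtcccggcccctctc

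Over the 300-base windows that end 50 bases after the start, the SMAD-type letters were found once in the window of Rgs16, on the other strand, at bases -237 to -232 from the start. None of the 3 motifs was found in the windows of Rgs2 and Rgs10 or in the 3 windows of Rgs19. Of all 32851 promoter windows in the table, 21.0% held the SMAD-type letters, 11.2% the Gata1-type letters and 16.8% the Runx-type letters. The share of G and C in the 250 bases shown was 72.4% for Rgs2, 66.4% for Rgs16, 76.4% for Rgs10 and 64.8% for Rgs19. Before the other starts of Rgs19 it was 74.8% and 54.4%. The share over all promoter windows was not computed. A match is only a match of letters, and these windows say nothing of which factor binds.

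Rgs18 lies on chromosome 1 in a row of RGS genes. In the order of protein-coding genes of GRCm38.p6, Rgs2, Rgs13, Rgs1, Rgs21 and Rgs18 follow each other, between Uchl5, a deubiquitinating enzyme gene, and Brinp3. Neighbours in this row had values of both signs, with 1.33 for Rgs2, 0.29 for Rgs13 (SE 0.32, adjusted p = 1), 1.01 for Rgs1 and -1.61 for Rgs18. The flanking genes had -0.03 for Uchl5 (SE 0.18, adjusted p = 1) and -0.01 for Brinp3 (SE 1.24, adjusted p = 1) as log2 changes by limma with Benjamini-Hochberg adjustment. Pla2g4a, a cytosolic phospholipase A2 gene beyond Brinp3, had -0.46 (SE 0.16, adjusted p = 0.689). Rgs21 was not analysed here.

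The level of each gene in the 3 harvests was not used to choose the genes and was tested with limma's moderated F test of the harvest number, with treatment in the fit. Rgs2 was the 1 of 7 that differed (adjusted p = 0.0435, against 3.10% of all genes called), with harvest 3 higher than harvest 1 by 0.90 and harvest 2 within 0.05 of harvest 1 on the log2 scale. Its dimmer probe had harvest means of -3.19, -3.14 and -2.65. Rgs10 was 0.60 higher in harvest 3 than in harvest 1 (adjusted p = 0.158) and Rgs1 0.74 lower (adjusted p = 0.167), neither past the threshold. Rgs18 (adjusted p = 0.346), Rgs19 (0.539), Rgs14 (0.674) and Rgs16 (0.788) did not pass. The Rgs2 call was lost without treated replicate 1 (0.153) or 2 (0.177) and without untreated replicate 1 (0.133) or 2 (0.229). Rgs1 passed in the fit blocked by slide (adjusted p = 0.0423), where 1340 genes over all passed, against 904 without that block. Rgs1 also passed without treated replicate 3, and Rgs10 without untreated replicate 3. Such fits leave 1 array in harvest 3, and far more genes over all passed in them than in the main fit. Nothing is read from these calls.

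Some markers of other cell types also differed between harvests, where 3.10% of all genes tested did. Of 10 measured megakaryocyte and platelet markers, 3 differed between harvests and were lower in harvest 3 than in harvest 1 (Pf4, Itga2b and Ppbp), and their list summed to 69.7, 65.0 and 21.4 times the 75th percentile in harvests 1, 2 and 3. Of 8 stromal and endothelial markers, 4 differed and were lower (Col1a1, Col1a2, Col3a1 and Pdgfra), with sums of 8.17, 24.5 and 2.27. Of 9 neutrophil and monocyte markers, 2 differed and were higher (Csf1r and S100a8), with sums of 573, 569 and 642. Of 6 erythroid markers 1 differed and was lower (Hbb-bt), and 0 of 7 progenitor, 0 of 6 mast cell and 0 of 8 lymphocyte markers differed. Their part in the harvest difference of Rgs2 was not tested. With treatment, 0 markers of these 7 lists passed, without or with the harvest block; the megakaryocyte and platelet sum ran from 20.1 to 67.4 in treated and from 22.7 to 75.4 in untreated cells.

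**Figure D3:**
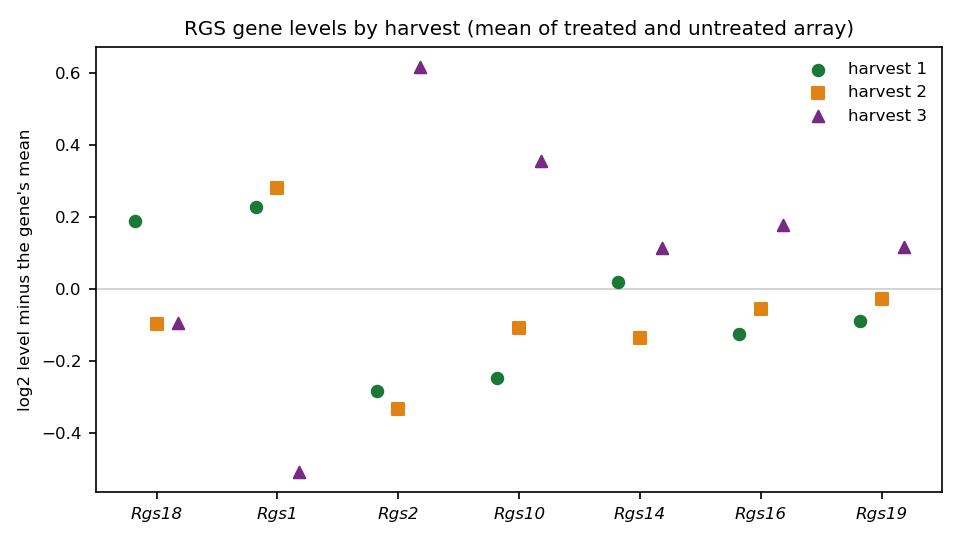
Level of each of the 7 genes in harvests 1, 2 and 3, as the mean of the treated and the untreated array on the log2 scale minus the mean of the gene over all 6 arrays. Rgs2, Rgs10, Rgs14, Rgs16 and Rgs19 are highest and Rgs1 is lowest in harvest 3. For Rgs18, harvests 2 and 3 differ from harvest 1 by -0.29 and -0.28.

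Of 13 further RGS genes, 11 were measured, and their median log2 change was 0.14, against -0.01 over all genes tested. By limma with Benjamini-Hochberg adjustment 0 passed, and 1 passed with the harvest block, against 0.253% and 0.665% of all genes. This was Rgs8, an R4 gene best known from the brain, which read 0.20, 0.78 and 0.98 in treated cells, against -0.84, -0.20 and -0.06 in untreated cells. Its log2 change was 1.02 (SE 0.29, adjusted p = 0.426; 0.0419 with the harvest block), with pair changes of 1.04, 0.99 and 1.04, within slide 1 0.65 and within slide 2 1.08. The probes disagreed in size, since a dimmer Rgs8 probe gave 0.30. Rgs12, the R12 relative of Rgs10 and Rgs14, had 0.34 (SE 0.17, adjusted p = 1). Rgs4, an R4 gene of brain and heart, had -0.86 (SE 0.31, adjusted p = 0.715), and was well above background on 5 of 6 arrays. Its intensity of 6.86 to 24.3 lay near the floor of the arrays. A second Rgs4 probe gave 0.09 and was well above background on 1 of 6 arrays. Rgs3, an R4 gene with several transcripts, had 0.11 with its brightest probe (SE 0.16, adjusted p = 1) and between 0.35 and 0.46 with the other 4.

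Among the G proteins that RGS proteins act on, the 1 of 24 measured subunits past the threshold was Gna15, against 0.253% of all genes. It encodes Gα15, a promiscuous Gq-class subunit found mainly in blood cells. Gna15 read 1.80, 1.53 and 1.80 in treated cells, against 0.29, 0.18 and 0.21 in untreated cells. Its groups were far apart, and it rose 2.79-fold (log2 change 1.48, SE 0.14, limma adjusted p = 0.0203, higher in 3 of 3 pairs), with 1.55 within slide 1 and 1.48 within slide 2. The call was lost with any 1 array left out and with normexp background correction. The related Gna14 had 0.68 (SE 0.30, adjusted p = 0.928), and 0 subunits were lower past the threshold. The median of the subunits was 0.04, and their changes ran from -0.11 to 1.48.

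Of 34 measured blood cell receptors that couple to G proteins, 0 passed, against 0.253% of all genes. With the harvest block 2 passed, F2r and S1pr1, against 0.665% of all genes. F2r, the thrombin receptor PAR1, read 2.38, 2.45 and 0.84 in treated cells, against 0.67, 0.51 and -1.51 in untreated cells. Harvest 3 was low in both groups (adjusted p between harvests = 0.0225), and the log2 change was 2.00 (SE 0.69, limma adjusted p = 0.659; 0.0301 with the block), with 2.80 within slide 1 and 1.13 within slide 2. S1pr1, the sphingosine-1-phosphate receptor of lymphocyte and progenitor egress, read -0.03, -0.18 and -0.78 in treated cells, against -2.15, -1.70 and -2.33 in untreated cells. Its groups did not overlap, with a change of 1.73 (SE 0.26, adjusted p = 0.0779; 0.0392 with the block), 2.21 within slide 1 and 1.22 within slide 2. Receptors not past the threshold had values of both signs, with -1.52 for the formyl peptide receptor Fpr1 (SE 0.54, adjusted p = 0.69), 1.13 for the chemokine receptor Cxcr2 (SE 0.26, adjusted p = 0.278) and -1.02 for the nucleotide-sugar receptor P2ry14 (SE 0.27, adjusted p = 0.368). The homing receptor Cxcr4 had 0.30 (SE 0.32, adjusted p = 1), with pair changes of -0.29, 0.46 and 0.73. The median of the receptors was 0.07.

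Further regulators and effectors of G proteins, among them receptor kinases, phospholipase C β and adenylyl cyclases, had a median of 0.04 over 30 measured genes. Of these, 0 passed without or with the harvest block, against 0.253% and 0.665% of all genes. The changes of greatest size were 1.23 for Rasgrp2, a Rap1 exchange factor of platelets (SE 0.62, adjusted p = 1), 0.78 for the adenylyl cyclase Adcy3 (SE 0.16, adjusted p = 0.216) and 0.55 for Adcy7 (SE 0.15, adjusted p = 0.383), by limma.

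**Figure D4:**
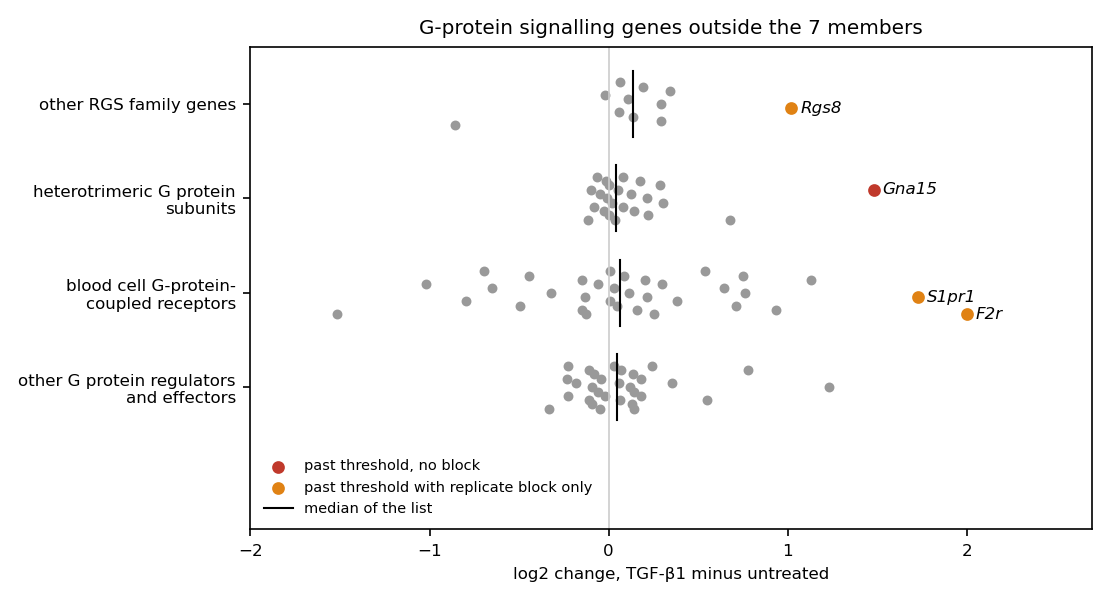
Log2 change, TGF-β1 minus untreated, of each measured gene of 4 lists of G-protein signalling genes, with the median of each list as a black line. Gna15 (red, 1.48) is past the threshold without a block, and Rgs8 (1.02), S1pr1 (1.73) and F2r (2.00) (orange) with the harvest block only; the vertical spread within a list is for legibility.

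Profiles over the 6 arrays were compared with that of Rgs18 by the root mean square distance after each gene was centred on its own mean, over 15633 further genes with a symbol. The nearest were Calcrl, an adrenomedullin and CGRP receptor subunit (distance 0.135), Pmaip1, the gene of the cell death factor Noxa (0.178), Meis1, a homeobox cofactor (0.203), Cd28, a co-stimulatory receptor (0.230), and Gfi1, a zinc-finger repressor (0.231). Their pair changes were -1.52, -1.22 and -1.73 for Calcrl, -1.83, -1.50 and -1.88 for Pmaip1, and -1.70, -1.34 and -1.20 for Meis1. No RGS gene was among the 5. Rgs14 stood at rank 558 with a distance of 0.658, and the other 5 genes of the 7 stood between ranks 14910 and 15365. The distance depends largely on the shift between treated and untreated arrays. These ranks therefore restate the directions given above and are no separate evidence.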

How the data were processed

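RNA of 6 samples was labelled with Cy3 and hybridised to 1-colour Agilent arrays of a mouse design. The authors' deposited scanner files hold spot intensity from Agilent Feature Extraction, background-subtracted and spatially detrended within each array but unscaled across arrays, as the file headers record. The deposited series matrix of the authors holds log2 values that follow the log2 median spot signal (r from 0.9995 to 0.9999); the submitters' processing notes name limma, and which steps it ran is not given in the sources used here.

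Log2 of the processed signal minus its 75th percentile over 43379 non-control spots was used, without outlier-flagged spots (43 to 101 per array). Probes well above background on at least 3 of 6 arrays were kept (36384 of 41174). RefSeq accessions named 23374 probes through the GRCm38.p6 gene table. A gene was represented by its brightest passing probe, and other probes of the 7 genes are given beside it. The group contrast was fitted in limma 3.58.1 under R 4.3.3 (lmFit and eBayes, no covariate), and harvests by a moderated F test. Both were also run on data simulated with normal noise. That run says nothing of how the calls here depend on the setting. The members and lists were chosen with earlier results of these data known. Genes named from the 4 G-protein lists are those past the threshold without or with the replicate block (up to 6 per list), and otherwise up to 3 of greatest change. The 5 nearest profiles, the chromosomal neighbours of Rgs18 and check genes of treatment and line were named as well. Cxcr4, Rgs3, Rgs12, Rgs4, Gna14, Fpr1, Cxcr2 and P2ry14 were added after their values were seen. Same-numbered samples deviated together (r of deviations from group means 0.636, 0.786 and 0.557 for pairs 1, 2 and 3), so the numbers, taken from the labels, are treated as pairing. The SEs and adjusted p-values of the treatment contrast come from the fit without the block, unless the block is named. They include differences between harvests. With the block the SE was 0.12 for Rgs18, 0.15 for Rgs1, 0.10 for Rgs2 and 0.11 for Rgs10. It was 0.18 for Rgs14, 0.31 for Rgs16 and 0.12 for Rgs19. Precision is limited by having 3 arrays per group. Normexp used the median spot signal, in place of the mean signal planned, as the files carry the median. Other settings tried are a quantile normalization, the matrix values, other filters, mean of probes, slide and harvest blocks and single arrays left out.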

Additional observations from a re-analysis of the deposited data

How the results depend on the processing

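The log2 changes of the 7 genes kept their sign in all 112 combinations of gene and setting. Each stayed within 1 SD of the replicates, taken as the larger of the group SDs. Leaving out 1 of 3 arrays cannot move a group mean by 1 SD of that group. The bound was therefore fixed in advance for left-out arrays, as it was for settings that return the main value. For many combinations the sign could not have differed. The replicate block and the filters on dim probes returned the main value for each of the 7 genes. The mean of probes did the same for genes with 1 probe. With groups that did not overlap, no array left out and no slide taken alone could reverse a sign. Counts of calls depended on the setting. The 74 genes called over all became 5 with normexp background correction, 171 with the authors' matrix values, 194 with the replicate block and 7 to 24 with single arrays left out; Rgs18 was not called with normexp or with any array left out, and was called in the other settings. Rgs8 was the 1 other RGS gene called with the replicate block, and F2r and S1pr1 were the 2 receptors. With the matrix values S1pr1 was the 1 receptor and Adcy7 the 1 effector called. Gna15 dropped out with normexp and with any array left out (0 subunits; 0 to 0 over the left-out arrays), and was called in the other settings. Rgs2 was called with the replicate block only. Beside Rgs2, Rgs8, F2r and S1pr1, the block changed no call among the 7 genes and the 4 G-protein lists. The 904 genes that differed between harvests became 15951 with normexp, 1359 with quantile normalization, 1662 with the matrix values and 458 to 8304 with single arrays left out (458 without untreated replicate 2, 8304 without untreated replicate 3). The harvest call of Rgs2 was also lost with no filter on dim probes (adjusted p = 0.0796) and with the mean of its probes (0.0796), and Rgs1 passed with normexp (0.0334). The cause was not tested. Rgs4, Rgs6 and Rgs7 were well above background on only 4 or 5 of 6 arrays, which limits their values.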
